A study of Mus musculus with 16 samples.

Results

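The unfolded protein and amino acid response is described here through 10 mouse genes, chosen by name: Atf3, Ddit3, Trib3, Chac1, Asns, Psat1, Phgdh, Xbp1, Herpud1 and Hspa5. Every probe whose platform symbol is one of these names was taken, which gave 14 of the 25697 probes and all 10 genes, out of 16593 genes on the array. The arrays, 8 Hdac3 CKO and 8 wild type, came from cultures of bone marrow stromal cells kept for 7 days in osteogenic conditions. Total RNA was hybridised to an Illumina mouse BeadChip. In the CKO animals a Cre recombinase under the Osterix1 promoter deletes the histone deacetylase gene Hdac3. Deletion is limited to cells in which that promoter is or was active, and to their descendants. Both genotypes had a mixed CD1/C57BL6 background. The number of animals, any pooling and whether the controls carried Cre are not given in the labels, so a p-value here speaks of the spread among the 16 arrays, which may be technical.

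When proteins misfold in the endoplasmic reticulum (ER), or when amino acids run short, separate kinases phosphorylate the translation factor eIF2alpha, and most protein synthesis slows while the transcription factor ATF4 is made. ATF4 turns on genes for amino acid synthesis and uptake and for the stress regulators Atf3, Ddit3 and Trib3. ER misfolding also activates the transcription factors XBP1 and ATF6, which raise chaperones and the machinery that removes misfolded proteins, whereas amino acid shortage alone works mainly through ATF4. Osteoblasts secrete large amounts of collagen and use both branches.

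The bases before the start of each gene are shown for the 5 members in which a searched motif was found. The sequences are from RefSeq, build GRCm38.p6, 250 bases up to the annotated start, in the direction of transcription, with a matched motif in capitals. The motifs searched on both strands were the ATF4 response element core TGATGNAA, the ER stress response element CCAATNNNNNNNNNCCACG, its second form (ATTGG, any base, then CCACG) and the XBP1 core TGACGTG, and both ER stress response elements end in the same CCACG.
Chac1, chr2:119350992-119351241 (plus strand): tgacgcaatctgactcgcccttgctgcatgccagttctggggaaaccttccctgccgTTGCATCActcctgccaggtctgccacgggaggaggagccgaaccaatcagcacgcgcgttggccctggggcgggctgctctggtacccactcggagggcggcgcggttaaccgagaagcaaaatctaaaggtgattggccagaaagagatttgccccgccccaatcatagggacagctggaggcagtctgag
Asns, chr6:7693210-7693459 (minus strand): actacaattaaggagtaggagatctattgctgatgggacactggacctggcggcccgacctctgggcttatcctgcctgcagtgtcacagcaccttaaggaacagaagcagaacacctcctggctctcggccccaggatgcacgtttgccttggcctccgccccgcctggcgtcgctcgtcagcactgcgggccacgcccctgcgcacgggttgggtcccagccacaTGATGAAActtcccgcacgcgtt
Atf3, chr1:191183334-191183583 (minus strand): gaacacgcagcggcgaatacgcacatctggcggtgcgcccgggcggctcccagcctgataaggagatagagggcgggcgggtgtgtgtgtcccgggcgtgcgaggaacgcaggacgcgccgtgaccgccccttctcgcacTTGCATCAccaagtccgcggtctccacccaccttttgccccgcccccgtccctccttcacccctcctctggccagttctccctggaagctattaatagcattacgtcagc
Herpud1, chr8:94386179-94386428 (plus strand): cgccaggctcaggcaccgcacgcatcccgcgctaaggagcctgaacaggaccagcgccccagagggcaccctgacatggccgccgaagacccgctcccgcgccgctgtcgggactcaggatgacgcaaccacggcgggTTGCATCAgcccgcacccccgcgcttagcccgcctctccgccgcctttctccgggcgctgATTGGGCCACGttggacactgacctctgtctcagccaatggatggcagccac
Hspa5, chr2:34771840-34772089 (plus strand): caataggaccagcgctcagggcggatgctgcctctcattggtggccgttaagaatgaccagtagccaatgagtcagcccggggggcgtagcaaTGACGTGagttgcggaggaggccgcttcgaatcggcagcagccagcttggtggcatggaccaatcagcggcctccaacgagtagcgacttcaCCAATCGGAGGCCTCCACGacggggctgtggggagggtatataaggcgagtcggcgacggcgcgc

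The ATF4 core was found before 4 of the 10 genes (Atf3, Chac1, Asns and Herpud1), and 3.45% of all 32851 promoters of the table hold it. It lay 193 to 186 bases before the start of Chac1, 110 to 103 before that of Atf3, 112 to 105 before that of Herpud1 and 23 to 16 before that of Asns. The ER stress response element was found before 1 member, Hspa5, at 65 to 47 bases, and before 0.113% of all promoters. Its second form was found before 1 member, Herpud1, at 52 to 42 bases, and before 0.0304% of promoters. This second form was added after the sequences had been seen. The XBP1 core was found before Hspa5 at 157 to 151 bases, and before 1.65% of promoters. No searched motif was found before Ddit3, Trib3, Psat1, Phgdh or Xbp1. A match is a description of letters, and no match says only that the letters are not in this window.

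**Figure D1:**
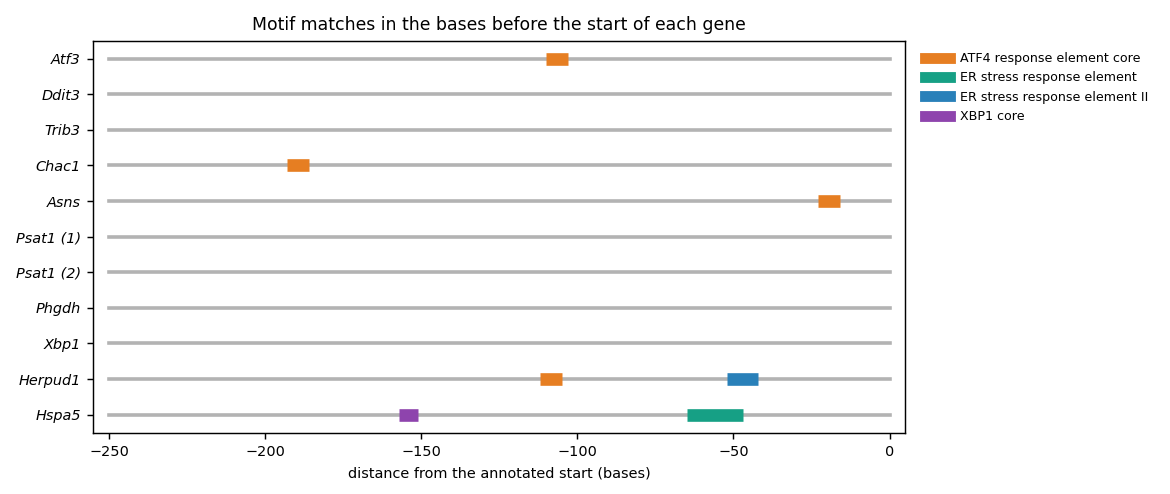
Matches to the 4 motifs in the 250 bases before the annotated start of each member (horizontal axis, distance from the start in bases; Psat1 has 2 annotated starts). Orange bars mark the ATF4 core in Atf3, Chac1, Asns and Herpud1, and the other colours mark the ER elements in Herpud1 and Hspa5.

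The arrays are named by the letters and number of their titles, such as KO15 and WT13. Neighbouring numbers were grouped into 5 runs, split wherever the gap was over 4: run 1 (KO7, WT5), run 2 (KO15, KO16, WT13, WT14), run 3 (KO23, KO24, WT21, WT22), run 4 (KO32, WT30) and run 5 (KO46, KO47, WT42, WT44). What the numbers stand for is not stated in the labels. Deposited intensities were linear and quantile normalised, with a median of 97.1 to 97.2 on every array, and are given as log2, on which scale the median probe averaged 6.60. Hdac3 itself averaged 10.25 ± 0.077 in Hdac3 CKO and 10.42 ± 0.085 in wild type arrays (SD, n = 8 each). It was lower in Hdac3 CKO in 5 of 5 runs, with a mean difference of -0.17 (SE 0.045, and 0.046 with the runs as a block). The unadjusted limma p was 0.00161, and 0.00238 with the block. The difference did not pass over all probes (limma adjusted p = 0.932, and 0.162 with the block). WT13 and WT14 lacked Y-linked RNA (mean log2 6.29 and 6.36 over 3 Y-linked probes, at least 7.20 on every other array). Of 8 measured osteoblast markers 2, Dmp1 and Phex, averaged no higher than the median probe, and type I collagen (Col1a1) averaged 12.28. The cultures also carried macrophage RNA, with Lyz2 at 14.96 and Adgre1 at 12.06. Of 9 markers of plasma and B cells, which have a strong unfolded protein response, 8 averaged at or below the median probe, and Sdc1, also found on other cells, stood at 7.88. In such bulk RNA fewer cells of a type and less RNA per cell cannot be told apart.

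Among the effectors of the response, run 5 stood far above the other runs in both genotypes. Chac1, which encodes an enzyme that breaks down glutathione and is an ATF4 target, lies on chromosome 2 (119351242 to 119354326). Its log2 intensity was 11.07 and 11.18 in KO46 and KO47 and 11.32 and 11.09 in WT42 and WT44. The other 12 arrays lay between 8.48 and 9.36, so run 5 did not overlap with them. Run 5 was 4.40-fold above the mean of the other runs (log2 2.14, SE 0.081, 95% interval 1.96 to 2.31), the 6th highest of 25697 probes. Trib3, which encodes a pseudokinase that binds AKT and ATF4 (chromosome 2, 152337425 to 152344060), was 7.70 and 7.87 in KO46 and KO47 and 7.75 and 7.76 in WT42 and WT44. Its other arrays, between 6.39 and 6.68, lay close to the median probe. Its fold was 2.36 (log2 1.24, SE 0.064). It was 3.27 when each array's lowest intensity was subtracted and 16 then added, an alternative chosen after seeing the data. Ddit3, which encodes the transcription factor CHOP (chromosome 10, 127290793 to 127296291), was 10.06 and 9.52 in KO46 and KO47 and 10.46 and 9.81 in WT42 and WT44. The other arrays reached at most 9.05, and run 5 was 2.27-fold above the other runs (log2 1.18, SE 0.11). A second Ddit3 probe gave 2.09-fold. Atf3, an early stress transcription factor (chromosome 1, 191170296 to 191183333), overlapped with other runs. It was 8.59 and 8.68 in KO46 and KO47 and 9.09 and 9.03 in WT42 and WT44. Run 1, with 8.83 in KO7 and 8.77 in WT5, and KO23, with 8.68, overlapped with run 5, and runs 2 and 4 were lowest, at 7.85 to 8.05.

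The enzymes of amino acid synthesis were highest in run 5 as well. Asns, asparagine synthetase (chromosome 6, 7675165 to 7693209), was 12.75 and 13.01 in KO46 and KO47 and 12.73 and 12.95 in WT42 and WT44, and at most 12.09 on any other array. Run 5 was 2.11-fold above the other runs (log2 1.08, SE 0.080), and the other Asns probes gave 2.24-fold and 2.09-fold. Phgdh, which encodes the enzyme of the first step of serine synthesis from a glycolytic intermediate (chromosome 3, 98313171 to 98339969), was 10.30 and 9.82 in KO46 and KO47 and 10.19 and 10.01 in WT42 and WT44, against at most 9.68 elsewhere. The difference was 1.87-fold (log2 0.90, SE 0.10). Psat1, the next enzyme of that route (chromosome 19, 15905123 to 15925059), was 11.72 and 11.57 in KO46 and KO47 and 11.73 and 11.49 in WT42 and WT44. It stood 1.55-fold higher in run 5 (log2 0.63, SE 0.072), with WT44 barely above WT21, which had 11.48.

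The ER branch did not share this pattern in size. Hspa5 encodes BiP, the main chaperone of the ER (chromosome 2, 34772090 to 34776529), and Xbp1 the transcription factor that drives secretory capacity (chromosome 11, 5520641 to 5525993). Hspa5 was 7.66 and 7.49 in KO46 and KO47 and 7.76 and 7.30 in WT42 and WT44, within a range of 7.18 to 7.62 on the other arrays except for KO46 and WT42. Xbp1 was 13.05 and 13.16 in KO46 and KO47 and 12.82 and 13.13 in WT42 and WT44, inside the range of the others, 12.68 to 13.30. The difference between run 5 and the other runs was 0.17 (log2, 95% interval 0.0054 to 0.33) for Hspa5 and -0.0073 (-0.15 to 0.14) for Xbp1. The Hspa5 probe was fairly dim (65.7% of all probes averaged no higher), and the intensity offset shrinks the folds of dim probes. With the lowest intensity subtracted and 16 then added, the Hspa5 difference was 0.21 (SE 0.11). The Xbp1 probe measures its total RNA as far as the files say, and splicing was not measured. Herpud1, which takes part in removing misfolded ER proteins (chromosome 8, 94386429 to 94395371), lay between. It was 12.33 and 12.42 in KO46 and KO47 and 12.17 and 12.15 in WT42 and WT44, above all other arrays (at most 12.09) but by 1.27-fold only (log2 0.35, SE 0.050). Its other probe gave 1.39-fold.

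**Figure D2:**
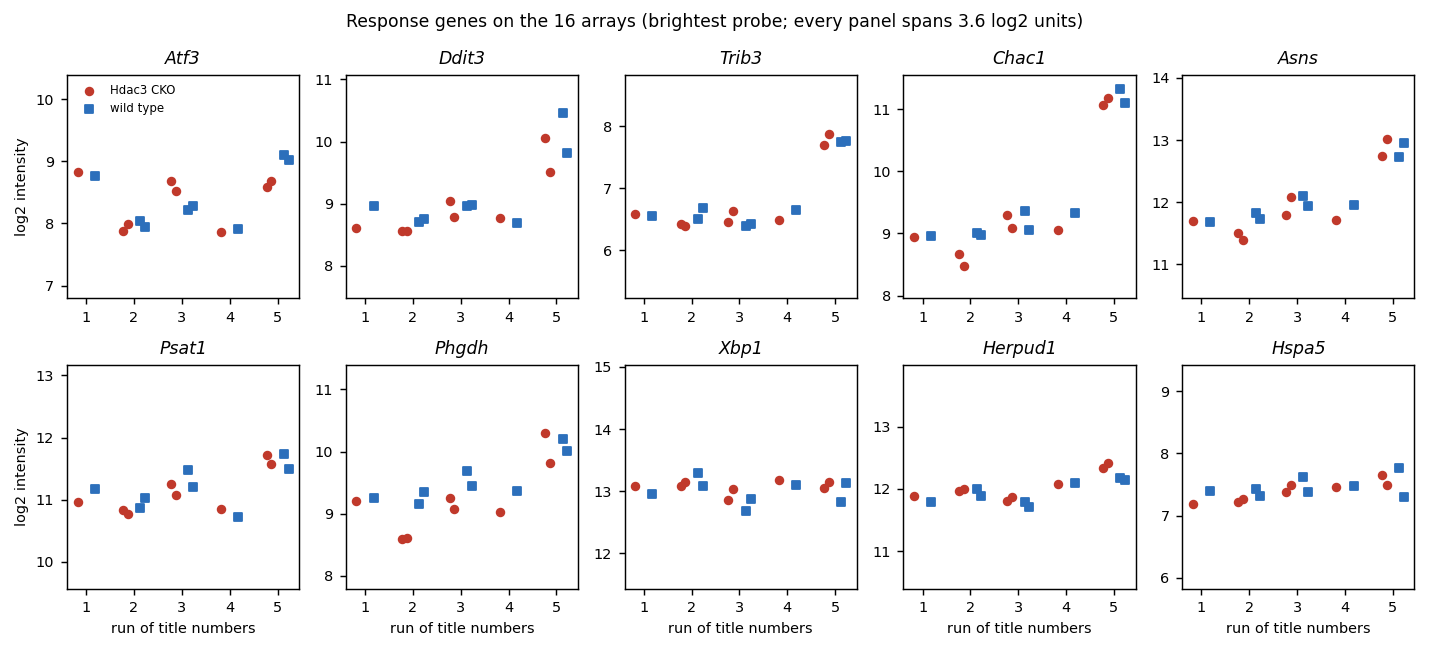
Log2 intensity (vertical axis, 3.6 units in every panel) of the brightest probe of each member on the 16 arrays, by run of title numbers, with Hdac3 CKO as red circles and wild type as blue squares. Run 5 stands above all other arrays for Ddit3, Trib3, Chac1, Asns, Psat1, Phgdh and, by a smaller step, Herpud1, in both genotypes, and not for Xbp1 or Hspa5.

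Differences between the 5 runs were tested at every probe with a moderated F test in limma, with genotype in the model. Of the 14 member probes 12 passed at an adjusted p under 0.05 over all probes, where 20.1% of all probes passed. Adjusted p ran from 1.01e-09 for Chac1 and 3.45e-08 for Trib3 to 2.39e-04 for a Herpud1 probe, while Xbp1 (0.109) and Hspa5 (0.240) did not pass. On 11 member probes, of 7 genes, all 4 arrays of run 5 lay above all 12 others, against 1.24% of all probes (1.34% of all genes by their brightest probe). Run 5 exceeded the mean of the other runs by over 1 on the log2 scale at 7 member probes, those of Chac1, Trib3, Ddit3 and Asns, against 0.311% of all probes. No member probe had all arrays of run 1, 2, 3 or 4 above or all below the rest. Over all probes this was rare too, at 0.957% to 2.19% above and 0.837% to 2.06% below, so it says little of the members. Run 5 was singled out after its values were seen, so these counts describe the arrays and carry no test. Without run 5, 7 of 14 member probes passed the test between the remaining runs, where 17.6% of all probes passed. The lowest adjusted p was then that of Atf3 (9.92e-05), whereas Trib3 had 0.855 and the brightest Ddit3 probe 0.0687.

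The step of run 5 was of like size in both genotypes for most members. Taken over Hdac3 CKO arrays alone, run 5 exceeded the mean of the other runs by a log2 of 2.18 for Chac1, 1.27 for Trib3, 1.07 for Ddit3, 1.18 for Asns, 0.70 for Psat1 and 1.06 for Phgdh. Over wild type arrays alone the values were 2.09, 1.20, 1.29, 0.98, 0.57 and 0.74 in the same order of genes. For Atf3 it was 0.33 in Hdac3 CKO and 0.83 in wild type arrays. Whether the genotype difference varies between runs was tested with an interaction F test in limma, and none of the 14 member probes passed (0.494% of all probes did), with 1 member probe, that of Atf3, at an unadjusted p under 0.05 (0.00147, adjusted 0.136), where 7.62% of all probes lay under 0.05. Runs 1 and 4 hold a single array of each genotype, which limits this test. The mean of 10 macrophage markers was 9.73, 9.74, 9.96, 10.34 and 10.16 in runs 1 to 5, and its part in the differences between runs was not tested.

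The other genes of the response were taken from 4 lists, of which 69 of 78 genes were measured. Among the eIF2alpha kinases and phosphatases and the factors around ATF4, 11 of 16 genes passed the test between runs, where 22.3% of all genes did. Atf5, an ATF4-related transcription factor, was 12.14 to 12.39 in run 5 and 10.51 to 11.17 elsewhere, a difference of 1.31 (SE 0.062, limma adjusted p = 7.72e-09). Atf4 itself was 11.18 to 11.89 in run 5, overlapping with 10.71 to 11.52 elsewhere (difference 0.56, SE 0.12, adjusted p = 0.00874). Ddit4, an inhibitor of mTORC1, had a difference of 1.00, Nupr1 of 0.62, Sesn2 of 0.44 and Ppp1r15a, which directs the eIF2alpha phosphatase, of 0.34. Run 5 was not the highest run for Ppp1r15a, which averaged 8.30 in run 1 and 8.25 in run 5. For Ddit4 run 4 stood near run 5, at 10.44 against 10.68. Eif2ak1, Cebpb and Bbc3 had 0.13, 0.12 and 0.11, with 95% intervals that include 0. Eif2ak2, the kinase PKR that senses double-stranded RNA, was lower in run 5 (-0.99), as was Tnfrsf10b (-0.27). The other kinase genes, Eif2ak3 (PERK) and Eif2ak4 (GCN2), did not pass, at 0.019 and 0.016, and Eif2ak4 lay below the median probe.

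Amino acid synthesis and transport genes were mostly higher in run 5 where they passed. Of 16 measured genes 11 passed, where 22.3% of all genes did. All 4 arrays of run 5 were above the rest for 6 of them, against 1.34% of all genes. The cationic amino acid transporter gene Slc7a3 had a difference of 1.41 (SE 0.10) and the glycine transporter gene Slc6a9 one of 1.36 (SE 0.12). Cth, which makes cysteine from cystathionine, had 1.05, and the mitochondrial one-carbon enzyme genes Mthfd2 and Shmt2 had 1.00 and 0.67. The large neutral transporter gene Slc7a5 had 0.85, its partner Slc3a2 0.58, the cystine transporter gene Slc7a11 0.41, Slc1a4 0.37 and Gpt2 0.35. Run 5 was not the highest run for Slc7a11, which averaged 8.35 in run 3 and 8.02 in run 5. Slc38a2, a glutamine and alanine transporter gene, passed in the opposite direction (-0.50). Psph, the last enzyme of serine synthesis, lay below the median probe and had 0.013. Of 12 measured tRNA synthetases 6 passed, against the same 22.3% of all genes. They were Lars at 0.69, Nars at 0.61, Sars at 0.52, Aars at 0.48, Tars at 0.33 and Wars at 0.32. The first 4 of these had run 5 above all other arrays, against 1.34% of all genes.

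ER chaperones and degradation genes were not raised as a list. Of 25 measured genes 7 passed the test between runs (22.3% of all genes did), and none had run 5 above all other arrays. The median run 5 difference was 0.0023, against 0.39 for amino acid synthesis and transport, 0.25 for tRNA synthetases, 0.11 for the eIF2alpha list and 5.27e-04 over all genes. In at least 1 genotype 19 of the 25 ER genes averaged above the median probe. So did 11 of 16 amino acid genes, 10 of 12 tRNA synthetases and 14 of 16 genes of the eIF2alpha list. The intensity offset shrinks the folds of the dimmer genes in each list. Dnajc3, an ER co-chaperone gene, had a run 5 difference of -0.50, the chaperone genes Hsp90b1 and Calr of -0.38 and -0.36 and Hyou1 of -0.17. Sel1l had 0.21. Ero1b and Os9 had 0.097 and 0.089, with 95% intervals that include 0, and run 5 was not the highest run for either. These medians and counts describe the lists, and the lists were not tested against each other.

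**Figure D3:**
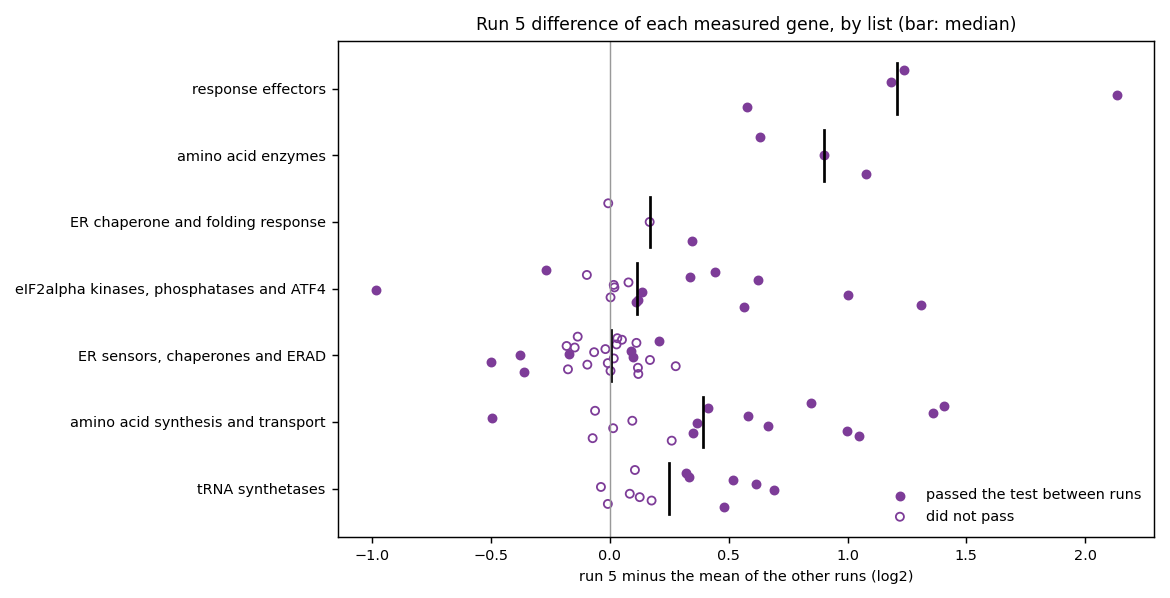
Run 5 minus the mean of the other runs (log2, horizontal axis) for each measured gene of the members' 3 role groups and the 4 pathway lists, with filled points for genes that passed the limma test between runs and a bar at each list's median. Effectors, amino acid enzymes and transporters reach beyond 1, while the 25 ER sensors, chaperones and degradation genes stay between -0.50 and 0.28.

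The genotype difference was small beside the step of run 5, and no member passed. No member probe passed at an adjusted p under 0.05 without a covariate, as no probe of the array did (0.00% of probes, and 4.74% at an unadjusted p under 0.05, among them none of the 14). With the runs as a fixed block again no member probe passed, where 0.218% of all probes did. At an unadjusted p under 0.05 the block gave 5 of 14 member probes, of Phgdh, Asns, Chac1 and Herpud1, where 11.2% of all probes lay under 0.05. By brightest probes it gave 3 of 10 genes, Asns not among them. Of the 14 member probes 4 were both under 0.05 and lower in Hdac3 CKO, where 5.37% of all probes were. A lower value in Hdac3 CKO in at least 4 of 5 runs was found at 8 of 14 member probes, against 22% of all probes. By brightest probes it was found for 4 of 10 genes, since Asns, Ddit3 and Herpud1 have more than 1 probe. Of 10 members 8 were lower in Hdac3 CKO by their brightest probe, as were 8221 of all 16593 genes, with a median log2 difference of -0.075, against 7.12e-04 over all genes.

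Phgdh had the largest genotype difference of the members. Its log2 intensity had a lowest, median and highest value of 8.59, 9.14 and 10.30 in Hdac3 CKO arrays and of 9.16, 9.41 and 10.19 in wild type arrays, so the genotypes overlapped. The mean was 9.24 ± 0.58 in Hdac3 CKO and 9.56 ± 0.37 in wild type arrays (SD, n = 8 each), a difference of -0.32 (SE 0.22, limma adjusted p = 0.932). With the run block the SE was 0.089, the 95% interval -0.51 to -0.13 and the adjusted p 0.162. Phgdh was lower in Hdac3 CKO in 5 of 5 runs, by -0.65 in run 2, -0.39 in run 3, -0.34 in run 4, -0.053 in run 1 and -0.041 in run 5. The exact permutation test (two-sided) returned p = 0.209 when all 12870 arrangements were counted and p = 0.0162 for the 864 that keep the genotypes balanced in each run, of which the smallest possible is 0.00231. It passed over all probes in a single setting, with the block and without KO46 (-0.39, adjusted p = 0.0425), and without run 2 the block gave -0.21 (adjusted p = 0.821).

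By their brightest probes Asns and Chac1 were lower in Hdac3 CKO mainly in runs 2 and 4. The dimmest Asns probe was lower in 5 of 5 runs, by -0.42 in run 2, -0.30 in run 3, -0.15 in run 1, -0.075 in run 5 and -0.064 in run 4. Asns had a lowest, median and highest value of 11.39, 11.75 and 13.01 in Hdac3 CKO and of 11.68, 11.95 and 12.95 in wild type arrays. The difference of its brightest probe was -0.12 (SE 0.068 with the block, adjusted p = 0.537), and the dimmer probes had -0.20 and -0.22 (adjusted p = 0.264 and 0.232). Within runs the exact permutation p of these 3 probes was 0.120, 0.0324 and 0.0116. Chac1 had 8.48, 9.07 and 11.18 in Hdac3 CKO and 8.97, 9.19 and 11.32 in wild type arrays. It was lower in 5 of 5 runs, by -0.42 in run 2 and -0.27 in run 4 and by -0.084, -0.020 and -0.011 in runs 5, 1 and 3 (difference -0.16, SE 0.069 with the block, adjusted p = 0.380). In run 2 the macrophage marker mean was 10.03 and 10.04 in KO15 and KO16, against 9.39 and 9.49 in WT13 and WT14, and the adipocyte marker mean was 9.39 and 9.32 in KO15 and KO16, against 8.41 and 8.39 in WT13 and WT14. WT13 and WT14 are also the arrays without Y-linked RNA. The part of the adipocyte and Y-linked differences in the result was not tested, and the macrophage mean was only set as a covariate. With the macrophage mean as a covariate beside the runs the limma difference was 0.017 for Asns, -0.026 for Chac1 and -0.20 for Phgdh (adjusted p = 0.979, 0.969 and 0.816).

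The remaining effectors and Psat1 did not separate the genotypes. With the run block Ddit3 differed by -0.18 (95% interval -0.38 to 0.019), Trib3 by -0.021 (-0.14 to 0.094), Atf3 by -0.032 (-0.20 to 0.14) and Psat1 by -0.083 (-0.21 to 0.048), with adjusted p from 0.501 for Ddit3 to 0.937 for Atf3. Atf3 was higher in Hdac3 CKO in run 3 (0.36) and lower in run 5 (-0.43). KO23 and KO24 stood at 8.68 and 8.52 against 8.22 and 8.28 in WT21 and WT22. Of the ER members Herpud1 was 11.81, 11.98 and 12.42 (lowest, median and highest) in Hdac3 CKO and 11.71, 11.94 and 12.17 in wild type arrays. Its brightest probe had a difference of 0.096 (SE 0.042 with the block, adjusted p = 0.407) and its other probe one of -0.024, so the probes disagreed in direction. Xbp1 differed by 0.078 (-0.047 to 0.20) and Hspa5 by -0.067 (-0.21 to 0.071), with adjusted p of 0.687 and 0.777 with the block.

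**Figure D4:**
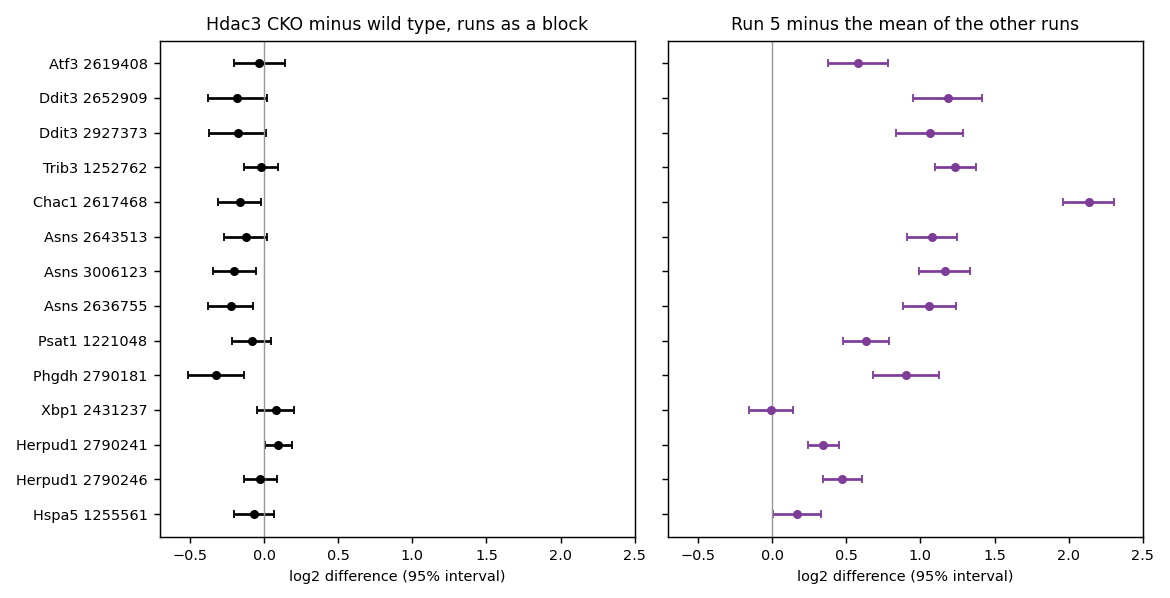
Log2 differences with 95% intervals for the 14 member probes (named by gene and probe number), Hdac3 CKO minus wild type with the runs as a block (left) and run 5 minus the mean of the other runs (right), on the same scale. All genotype differences lie between -0.32 and 0.096, and the run 5 differences reach 2.14 for Chac1.

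**Figure D5:**
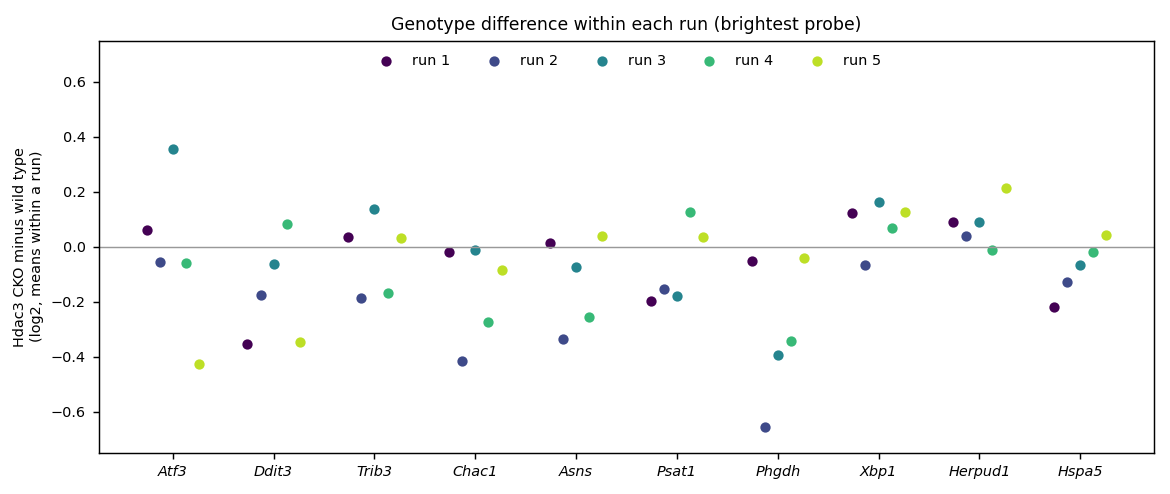
Hdac3 CKO minus wild type within each run (log2, vertical axis) for the brightest probe of each member, with a point for each of the 5 runs. Phgdh and Chac1 lie below 0 in every run, and Atf3 spans -0.43 in run 5 to 0.36 in run 3.

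None of the 69 other response genes passed for genotype with or without the block. The smallest unadjusted p with the block in the eIF2alpha list were those of Eif2ak3 (difference 0.22, adjusted p = 0.164), Atf4 (-0.25, 0.338) and Ddit4 (0.16, 0.535). Among ER genes they were those of Sec61b, a subunit of the protein translocation channel (-0.24, 0.237), Creld2 (-0.20, 0.327) and Calr (-0.15, 0.422). Among amino acid genes they were those of Slc7a11 (-0.26, 0.275), Gpt2 (0.23, 0.323) and Shmt2 (-0.17, 0.351), and among tRNA synthetases those of Cars (-0.12, 0.385), Nars (-0.092, 0.607) and Eprs (-0.13, 0.609). All adjusted p here are from limma with the runs as a block. The median genotype difference was -0.012 in the eIF2alpha list, -0.0093 in the ER list, -0.082 in amino acid synthesis and transport and -0.024 in tRNA synthetases.

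Genes whose levels followed those of a member most closely over the 16 arrays were sought among all other genes brighter than the median probe, by Pearson's r. For Asns they were Slc7a3 (Pearson r = 0.972), Atf5 (0.967), Diras2 (0.953) and Lars (0.942). For Trib3 they were Hsd17b1 (0.964), Slc6a9 (0.953), Cox6a2 (0.951) and Atf5 (0.950). Those of Hspa5 were Myl12a (0.827), Trappc4 (0.822), Tpt1 (0.818) and Neurl3 (0.816). Without run 5, over 12 arrays and in the order given, the r of the Asns genes was 0.842, 0.780, 0.669 and 0.863. That of the Trib3 genes was 0.710, 0.478, -0.065 and 0.21, and that of the Hspa5 genes 0.697, 0.724, 0.681 and 0.814. Among Ddit3, Trib3, Chac1, Asns, Psat1 and Phgdh the 15 pairwise r ran from 0.765 to 0.970 over all arrays (median 0.890) and from -0.25 to 0.847 without run 5 (median 0.545). The arrays fall into runs, so these r describe likeness and carry no test.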

How the data were processed

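The RNA of the 16 arrays was biotin labelled by the standard Illumina protocol, per the labels. The deposited values are probe intensities on a linear scale, which the authors had quantile normalised, since all arrays share the same quartiles and maximum. The program, filters and background handling are not given in the sources, and detection p-values were not part of the values used. The lowest intensity is 53.1 on 15 arrays and 54.2 on WT44, which leaves an offset that shrinks the folds of dim probes. Intensities were log2 transformed and not normalised again. The number of arrays limits the precision.

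All 25697 probes were tested on R 4.3.3 by limma 3.58.1 with moderated statistics and a Benjamini-Hochberg adjusted p under 0.05. Genotype was fitted without a covariate, and again with the 5 runs as a block. Between-run and interaction F tests had 4 coefficients each. Of the probes, 23978 had 1 symbol, 1719 are unnamed here, and 23962 were matched to the GRCm38.p6 RefSeq table. The brightest probe stood for a gene in lists. Named genes are the 10 members, Hdac3, marker genes set beside a result, pathway genes that passed a test or had the 3 smallest p with the block in their list, and the 4 genes most like Trib3, Asns and Hspa5. Eif2ak4 and Psph fall outside this rule and were named after their values were seen. Members, lists and runs were chosen with earlier results of these data known. The code was tested on simulated data. Alternatives were single arrays or runs left out, a random block, pairs of run means and array weights. Others were a brightness filter, a macrophage covariate and subtraction of the lowest intensity with 16 then added.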

Additional observations from a re-analysis of the deposited data

Results flagged for a closer look

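Among 28 groups of 8 arrays (14 member probes in each genotype), 1 array stood apart from its group. KO23 had an Xbp1 log2 intensity of 12.85, below the other Hdac3 CKO arrays, of which the nearest was at 13.04. The gap took up 0.572 of the group's range, over Dixon's 95% critical value for 8 arrays. Chance marks about 1 in 20 groups, so 1 in 28 is no more than chance gives. The wild type arrays of run 3, WT21 and WT22, were low in Xbp1 as well, at 12.68 and 12.88.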

How the results depend on the processing

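No member probe passed for genotype under any alternative except 1 setting: leaving out single arrays, with and without the run block, gave 0 to 1 member probes, the 1 being Phgdh without KO46. The between-run count of 12 member probes fell to 7 without run 5 and was 12 to 13 with any single array left out, and the interaction count stayed at 0. Signs of small genotype differences turned. Atf3 was 0.10 without run 5, with or without the block, and 0.014 with the run block and the macrophage covariate, and ranged from -0.10 to 0.066 over single arrays left out. Trib3 was 0.033 without run 2, with or without the block, and 0.072 with the macrophage covariate, and ranged from -0.17 to 0.11. Asns was 0.017 with that covariate. Chac1 ranged from -0.41 to 0.077 and Ddit3 from -0.33 to 0.0044 over single arrays left out, turning sign without WT42 and, for Chac1, also without WT44, in the fit with no block. Herpud1 was -0.024 by its dimmer probe. Phgdh, Psat1, Hspa5 and Xbp1 kept their direction in all 50 settings. The alternative of subtracting the lowest intensity and then adding 16 was chosen after seeing the data. It took the run 5 difference of Trib3 to 1.71 and that of Chac1 to 2.22. No title number occurs in both genotypes, so single arrays could not be paired. With the means of each run and genotype as 5 pairs, a paired fit gave 0 member probes passing, and Phgdh had -0.30 (limma adjusted p = 0.343).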
